A study of Mus musculus with 3 samples.

Results

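The 35 genes described here belong to the machinery of cell division: the mitotic cyclins and their kinase, mitotic kinases and checkpoint proteins, centromere and spindle proteins, replication and nucleotide supply genes, and 3 chromatin or cytoskeleton genes that rise in dividing cells but are also used by resting ones. They were taken by symbol from the 31053 genes of a droplet single-cell experiment on mouse gallbladder. A cell was called cycling when it held at least 1 UMI (a counted RNA molecule) of Mki67 and at least 1 of Top2a, the usual pair of proliferation markers. By this rule 160 of 24993 cells that passed quality filters were cycling (0.640%, 95% exact binomial interval 0.545 to 0.747%), or 151 of 24755 (0.610%) without 2 clusters described below that go against the labels. Intervals here cover counting error only.

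The study exposed male C57BL/6 mice by oral gavage in 3 groups: vehicle for 6 weeks, nanoplastics for 3 weeks, and nanoplastics for 6 weeks. Each group was 1 library of cells from 10 pooled gallbladders, released with trypsin and profiled with 3′ chemistry, so differences between animals cannot be seen. The deposited matrix joins the 3 libraries and marks cells by a barcode suffix of 1, 2 or 3. The labels and files used here do not tie a suffix to a group, so values are given per library and no comparison of vehicle with nanoplastics was made. With 1 library each, no test between libraries exists either.

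A dividing cell copies its DNA in S phase with the help of the MCM helicase, the sliding clamp PCNA and the enzymes that make nucleotides, and then builds a spindle in G2 and mitosis under the control of cyclin A and B with CDK1. Replication genes are known to be driven mainly by E2F factors, and the later G2/M genes by the MuvB complex, which joins B-MYB and FOXM1 and binds an element called CHR. The epithelium and stroma of an adult gallbladder turn over slowly, whereas dendritic cell precursors and plasmablasts are known to keep dividing.

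The libraries held 4263, 10933 and 9797 cells after filtering, at a median depth of 10381, 9330 and 2288 UMIs. The total UMI count per library ran from 58172348 to 121349261. Libraries 2 and 3 shared 21 cell barcodes, the other pairs 9 and 13, and no cycling cell shared its barcode. A pair of clusters, found almost only in library 1, go against the labels: 98 cells with rod photoreceptor genes, Xist in 52.0%, and 140 macrophage-like cells of median depth 560 UMIs, Xist in 40%. Xist, the RNA of the inactive X chromosome in females, was found in 0.214% of all other cells, and the mice were labelled male. Of those 238 cells, 232 were in library 1 and 9 were cycling, so the share of all cells and the macrophage-like values are also given without them.

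Cycling cells were most frequent in plasma cell-like and dendritic cell-like cells. Among the 16 classes rebuilt from marker genes, plasma cell-like cells had 8 of 118 (6.78%, 95% interval 2.97 to 12.9%) and dendritic cell-like cells 54 of 908 (5.95%, 95% interval 4.50 to 7.69%), and the intervals overlap, so their order is not resolved. Tuft cell-like cells had 2 of 64 (3.13%, 95% interval 0.381 to 10.8%) and macrophage-like cells 16 of 1279 (1.25%), of which more below. T cell-like cells had 17 of 1588 (1.07%, 95% interval 0.625 to 1.71%), and epithelial-like cells, the most numerous class, had 50 of 9753 (0.513%, 95% interval 0.381 to 0.675%). Neutrophil-like cells, of a type that does not divide in tissue, serve as the background class and had 0 of 1735, which allows a share of up to 0.173% by the limit of 3 counts (exact upper bound 0.212%) at a median of 1028 UMIs. Fibroblast-like cells had 3 of 5178 (0.0579%) and smooth muscle-like cells 1 of 1656 (0.0604%).

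Dendritic cell-like cells made up 3.63% of the cells and 33.8% of the cycling ones, while epithelial-like cells made up 39.0% and 31.2%. Markers are found more easily in deep cells, and the median epithelial-like cell had 13306 UMIs and the median dendritic cell-like cell 5427. With every cell thinned to 1000 UMIs, shallower cells left out (53 dendritic cell-like, 204 epithelial-like, 809 neutrophil-like), the expected shares were 1.23% for dendritic cell-like, 1.32% for plasma cell-like, 0.502% for T cell-like and 0.0676% for epithelial-like cells. The order of these 4 classes in the pooled cells was the same at equal depth, but that of the other classes named above was not. By library, the place of plasma cell-like cells did not hold. In library 2 their thinned share was 0.195% (65 cells), below dendritic cell-like cells at 0.468%. In library 3 it was 4.73% (28 cells), above 2.21%. Library 1 held 17 plasma cell-like cells, too few for a share. Tuft cell-like cells fell from 3.13% to 0.112%. Macrophage-like cells fell from 1.25%, above T cell-like cells, to 0.424%, below them. The classes were clustered without cell cycle genes. With them, the class named tuft cell-like held 119 cells, against 64 without them, and 40 of the 119 were cycling (33.6%). The dendritic and epithelial shares were then 1.47% and 0.134%. Whether the cells of this enlarged class are tuft cells was not tested.

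**Figure D1:**
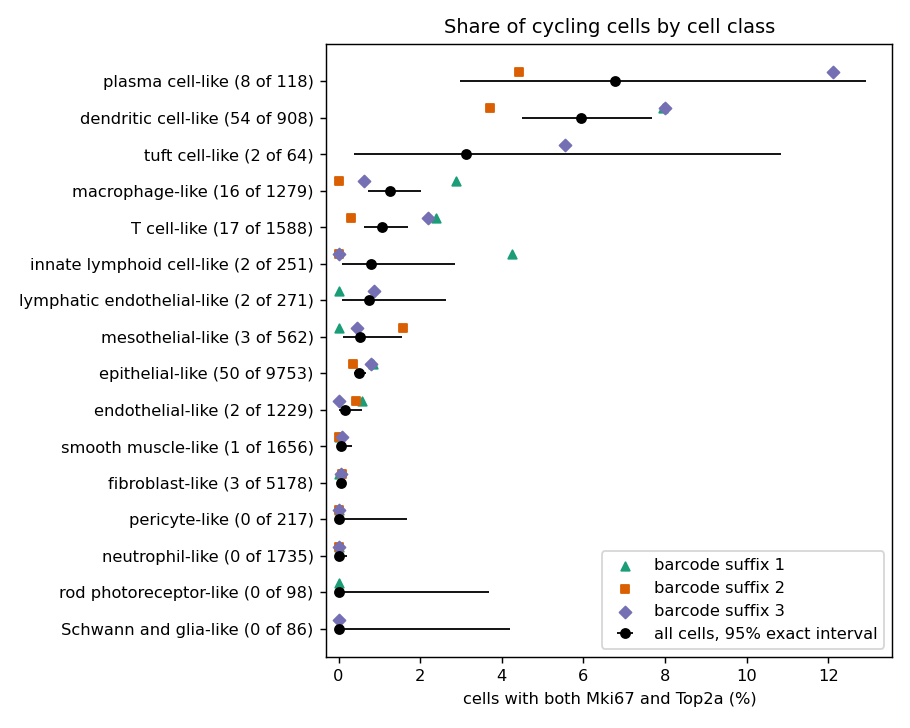
Share of cells with both Mki67 and Top2a (%, x axis) in 16 cell classes (cycling of all cells in brackets); black points with 95% exact intervals pool the 3 libraries, coloured symbols give each library with 20 cells or more of the class. Plasma cell-like and dendritic cell-like cells stand above T cell-like and epithelial-like cells, and neutrophil-like cells are at 0.

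By library, the dendritic share was 7.94%, 3.71% and 7.99% in libraries 1, 2 and 3, from 15, 16 and 23 cycling cells. T cell-like cells gave 2.38%, 0.309% and 2.19%, and epithelial-like cells 0.838%, 0.356% and 0.800%. Library 2 was the lowest in all 3 classes, and without it the shares were 7.97%, 2.27% and 0.818%. At 1000 UMIs per cell this held for dendritic cell-like (1.52, 0.468 and 2.21%) and T cell-like cells (1.15, 0.115 and 1.25%), but the epithelial values became 0.0984, 0.0701 and 0.0300%, with library 3 lowest. These are 3 libraries of unknown group, and the spread between animals is not known.

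Within the epithelium the share differed between clusters. The cluster led by Gabrp and Mmp7, with Olfm4 and Sox9, genes known from ductal and progenitor-type epithelium, had 11 cycling of 688 cells (1.60%, 95% interval 0.801 to 2.84%). In the 3 libraries it gave 1.77%, 1.14% and 1.64%. The other epithelial clusters ranged from 0.230% to 0.711%. At 1000 UMIs, however, this cluster's expected share was 0.0585%, inside the range of the others (0.0183 to 0.150%), so the order of the clusters does not hold at equal depth. Gabrp was also a leading gene of an epithelial cluster at 0.477%, and Olfm4 of the one at 0.711%.

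The 50 cycling epithelial-like cells kept the markers of their class. Epcam, an epithelial adhesion molecule, was at 1073 CPM in them and 1048 CPM in the other epithelial-like cells, and Krt8, a simple-epithelium keratin, at 3846 against 4687 CPM. Ptprc, the leukocyte marker CD45, was found in 14% of them against 3.71% of the others, and in 0.690% against 0.335% at 1000 UMIs. Cycling cells were deeper in most classes, with an overall median of 11775 UMIs against 4856, and 12 of the 1024 barcodes removed as doublets met the same rule. The part of undetected doublets in these cells was not tested.

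The cycling dendritic cell-like cells were higher in some type 1 genes and lower in most type 2 genes. Irf8, the factor that sets type 1 dendritic cell fate, was at 389 CPM (95% Poisson interval 340.3 to 443) in cycling and 205 CPM in other dendritic cell-like cells. Flt3, the receptor for the growth factor that sustains dendritic cells, is a listed marker of both types and was at 254 against 152 CPM. Naaa and Wdfy4, type 1 markers, were at 449 against 294 and 322 against 259 CPM. These values pool the libraries without weighting. Irf8 was higher in cycling cells of each library. Naaa was not higher in library 1 (261 against 271 CPM), and Wdfy4 was lower in library 3 (302 against 335 CPM). Xcr1 and Clec9a, each at 61.7 CPM (interval 43.2 to 85.5), were not clearly above 45.3 and 54.2 CPM. Itgae, also a type 1 marker, was lower, at 61.7 against 82.6 CPM. Clec9a was lower in cycling cells of libraries 1 and 2 (31.7 against 55.2 and 23.3 against 41.9 CPM). Xcr1 was lower in those of library 1 (27.7 against 58.2 CPM) and higher in those of libraries 2 and 3. Cd209a, a marker of type 2 cells, was at 182 (interval 149 to 219.9) against 395 CPM, and Clec10a at 65.2 against 160.4 CPM. Fscn1, a mark of migratory cells, had 1 UMI in all cycling ones, and was rare in both sets (1.85% of cycling and 3.04% of other cells). Ccr7 and Ccl22, also migratory markers, were lower in CPM, at 223 against 498 and 75.5 against 141. Ccr7 was found in 40.7% of cycling and 41.8% of other cells, and Ccl22 in 27.8% and 16.2%. Epcam, the epithelial marker, was at 77.2 CPM in cycling and 78.0 CPM in other dendritic cell-like cells and was found in 27.8% and 24.5% of them; its source was not tested. Sorted by gene, cells with Xcr1 or Clec9a and neither type 2 marker had 17 cycling of 165 (10.3%, 95% interval 6.12 to 16.0%), and cells with Cd209a or Mgl2 and neither type 1 marker 25 of 525 (4.76%, 3.11 to 6.95%).

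By library, the shares of the type 1 and type 2 gates were 15.5% and 7.30% in library 3, 5.36% and 2.49% in library 2, and 7.89% and 7.48% in library 1. Libraries 1 and 2 had 3 type 1-gated cycling cells each. At 1000 UMIs the shares were 4.30% and 1.70%, 1.07% and 0.254%, and 1.73% and 1.16% in the same order.

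Dendritic cell-like cells also carried Mki67 without Top2a. This was seen in 174 of 908 cells (19.2%), with 26.5%, 21.8% and 10.4% in libraries 1, 2 and 3. Top2a without Mki67 was found in 33 (3.63%). More cells with Mki67 alone than with Top2a alone were also found among plasma cell-like (8.47 against 5.08%), macrophage-like (3.44 against 2.19%), smooth muscle-like (1.51 against 0.604%) and neutrophil-like cells (0.980 against 0.231%), the last being the background class. Epithelial-like, T cell-like and fibroblast-like cells had the opposite balance, with Mki67 alone in 1.11%, 1.45% and 0.425% and Top2a alone in 2.35%, 2.83% and 1.004%.

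The dendritic cell-like cells with Mki67 alone carried few of the other division genes. Of the 174, 82 (47.1%) had none of the 20 other G2/M members and 5 had 3 or more, while the dendritic cell-like cells with neither marker had none in 56.3% and 3 or more in 1.55%. Among the 54 with both markers, 42 had 3 or more. Outside the cycling set, Mki67 stood at 52.7 CPM in dendritic cell-like cells (95% Poisson interval 46.7 to 59.3; 55.7, 56.9 and 38.4 CPM by library) and Top2a at 7.37 CPM (interval 5.24 to 10.1). The next class for Mki67, plasma cell-like, was at 13.4 CPM (interval 7.51 to 22.1).

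Between the type 1 and type 2 gates, the Mki67-only state leaned the other way from cycling. It was found in 128 of 525 cells of the type 2 gate (24.4%, 95% interval 20.8 to 28.3%) and in 17 of 165 of the type 1 gate (10.3%, 6.12 to 16.0%). The type 2 gate was higher in each library, at 31.8, 25.3 and 16.8% against 21.1, 8.93 and 5.63%, although its median depth was lower (5579 against 6614 UMIs). Cells with genes of both gates had the highest share on both readings, within wide intervals. Of these 43 cells, 14 had Mki67 alone (32.6%, 95% interval 19.1 to 48.5%) and 5 were cycling (11.6%, 3.89 to 25.1%). The Mki67-only shares of the gates were not thinned to equal depth.

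**Figure D2:**
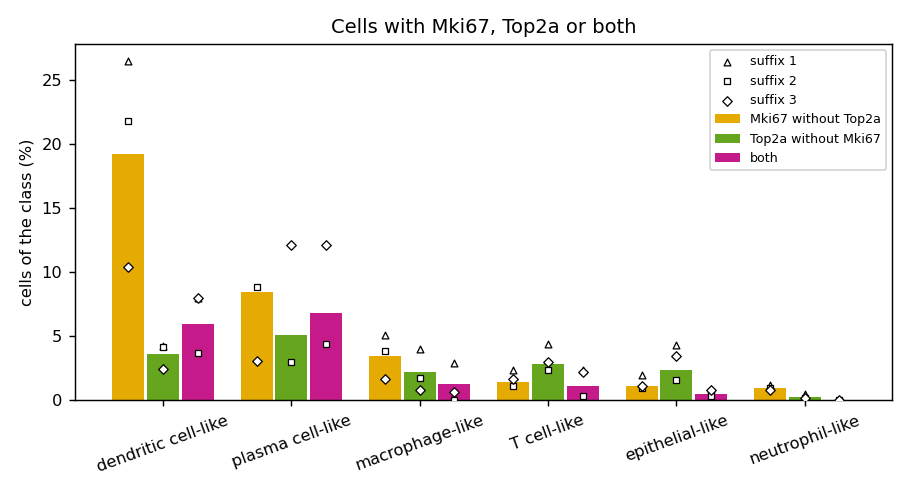
Share of cells (%, y axis) with Mki67 alone, Top2a alone or both in 6 classes; bars pool the 3 libraries and open symbols give each library with 20 cells or more. The Mki67-only bar of dendritic cell-like cells, 19.2%, is the tallest, with library values of 26.5, 21.8 and 10.4%.

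Macrophage-like cells had 16 of 1279 (1.25%, 95% interval 0.717 to 2.02%), and 9 of the 16 lay in the Xist-positive cluster; without it the share was 7 of 1139 (0.615%, 95% interval 0.247 to 1.26%). Of the 8 cycling plasma cell-like cells, 4 came from library 3, where the class had 33 cells, 3 from library 2 and 1 from library 1. All 8 held Jchain and Mzb1, a chaperone of antibody-making cells, at 33790.4 and 1928 CPM. The 17 cycling T cell-like cells held Cd3g, a T cell receptor subunit, at 472 CPM, against 604 CPM in the other T cell-like cells. Tuft cell-like, innate lymphoid, lymphatic endothelial and blood endothelial-like cells had 2 cycling cells each and mesothelial-like cells 3.

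The 2 defining genes found cells in which the other 33 members were higher together. Each member's CPM (its UMIs scaled to a common total) in cycling cells was set against the other cells of the same class and library (the matched cells). Each class and library was weighted by the summed UMIs of its cycling cells. Single cells were not matched on depth. Values by library are listed in the order of libraries 1, 2 and 3. All 33 were at least 2-fold higher, where 4.98% of the 9192 genes with 10 CPM or more on either side were. At least 2-fold lower were 0 members and 1.1% of genes. All but Pcna, 1.80-fold in library 1, passed in each of the 3 libraries, as did 3.67% of genes. 21 of the 33 reached 10 CPM only in the cycling cells, so their count is a description. The median log2 ratio was 5.01 for the members and 0.03 for all genes; for the 20 G2/M members it was 6.53 and for the 10 replication members 2.51.

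**Figure D3:**
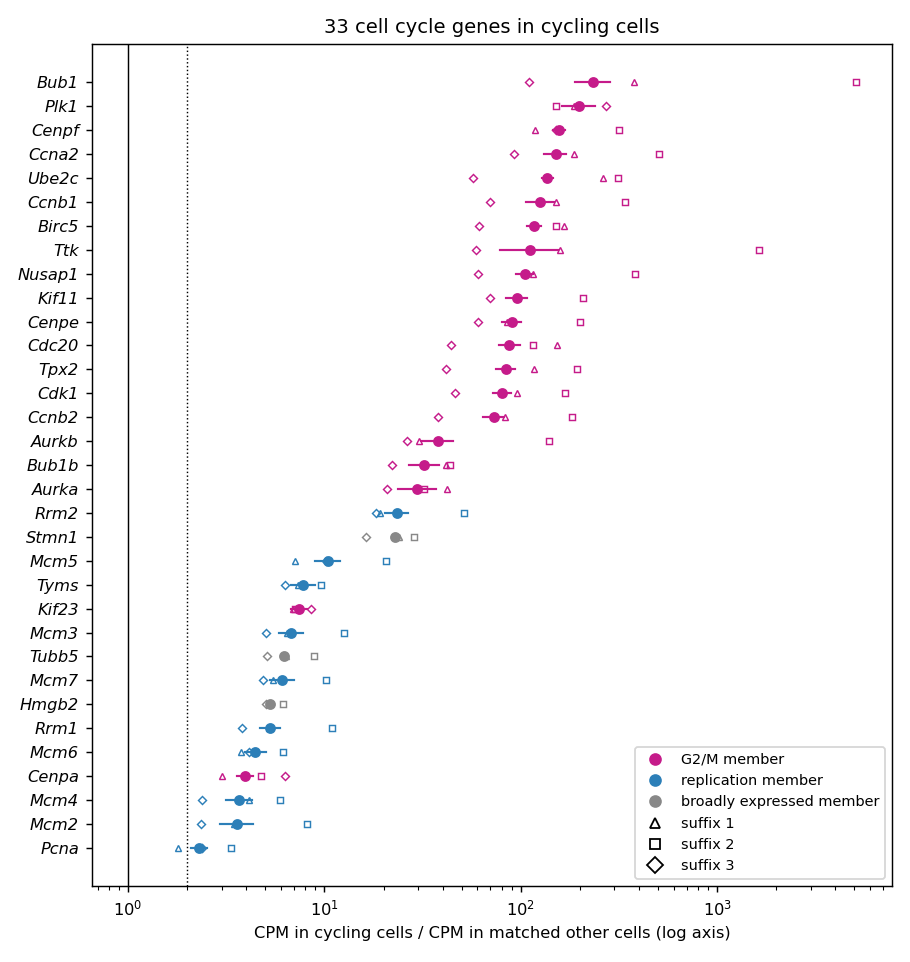
Ratio of CPM in cycling cells to CPM in matched other cells (log x axis) for 33 genes; filled points with 95% Poisson intervals of the cycling count pool the libraries and open symbols give each library. The solid line marks 1 and the dotted line 2; G2/M genes fill the upper end, replication genes the lower end, and Kif23 and Cenpa are the 2 G2/M genes among the latter.

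Mki67, a protein that coats mitotic chromosomes, was at 532, 494 and 303 CPM in cycling cells and 15.1, 11.6 and 10.3 CPM in matched cells. Top2a, the topoisomerase that untangles replicated DNA, was at 427, 479 and 429 CPM in cycling cells and 4.09, 2.89 and 6.06 CPM in matched cells. These levels follow from the choice of cells and are given as a description. Mki67 lies on chromosome 7 (GRCm38, 135689784 to 135716361, minus strand) and Top2a on chromosome 11 (98992943 to 99024189, minus strand).

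Among the cyclins and the destruction machinery, Ccna2, cyclin A2 of S and G2 phase, was at 80.9, 75.7 and 95.4 CPM in cycling cells and 0.433, 0.150 and 1.03 CPM in matched cells. Its ratio was 150.5-fold (95% interval 132 to 171), and 76.5% of all its UMIs lay in the cycling cells, which hold 1.2% of all UMIs. Ccnb1, cyclin B1, which takes cells into mitosis, was 126-fold (95% interval 107 to 147) higher and found in 53 of 160 cycling cells. Ccnb2 was 72.9-fold (95% interval 64.2 to 82.4) higher, and their partner kinase Cdk1 80.3-fold (95% interval 72.3 to 89.0). Ube2c, the enzyme that marks cyclins for destruction, was at 321, 336 and 237 CPM in cycling cells and 1.23, 1.07 and 4.18 CPM in matched cells, a ratio of 137-fold (95% interval 128 to 146). Cdc20, which activates the same ubiquitin ligase, was 87.3-fold (95% interval 77.0 to 98.5) higher. Without library 3 the ratios of Ccna2, Cdc20 and Ube2c were 244-, 138- and 280.4-fold. In these 6 genes the summed level of the cycling cells was above that of the matched cells in each of the 3 libraries. Single cells overlap, since Ccnb1, Cdc20 and Ccnb2 were found in 53, 59 and 68 of the 160 cycling cells.

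Of the UMIs of the mitotic kinases and checkpoint genes, from 35.4% for Aurka to 92.3% for Bub1 lay in cycling cells. Bub1, a spindle checkpoint kinase, was at 28.7, 38.5 and 37.1 CPM in cycling cells and 0.0766, 0.00756 and 0.336 CPM in matched cells; only 8 of its 104 UMIs were elsewhere, so its ratio of 234-fold (95% interval 189 to 286) rests on few matched counts. Plk1, the kinase that drives mitotic entry, was at 49.6, 26.1 and 36.0 CPM in cycling cells and 0.267, 0.172 and 0.133 CPM in matched cells, with a ratio of 197-fold (95% interval 162 to 238). Ttk, the checkpoint kinase Mps1, was seen in 29 of 160 cycling cells at 112-fold (95% interval 78.8 to 154). Its matched cells held only 11 UMIs, and the interval does not carry the error of that count. Birc5, the survivin subunit of the chromosomal passenger complex, was at 229, 263 and 142 CPM in cycling cells and 1.37, 1.74 and 2.32 CPM in matched cells, a ratio of 117-fold (95% interval 108 to 127). Without library 3 the ratios of Bub1 and Ttk were 652- and 246-fold. The Aurora kinases and Bub1b had smaller ratios. Aurkb was 37.7-fold (95% interval 31.1 to 45.2), Bub1b 32.1-fold (95% interval 26.9 to 38.1) and Aurka 29.7-fold (95% interval 23.7 to 36.8).

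Of the centromere and spindle genes, Cenpf, a kinetochore protein of G2, was at 301, 319 and 209.9 CPM in cycling cells and 2.55, 1.0 and 1.39 CPM in matched cells, a ratio of 156-fold (95% interval 145 to 167). Nusap1, which bundles spindle microtubules, was 105-fold (95% interval 94.8 to 115) higher, the spindle motor Kif11 95.2-fold (95% interval 84.2 to 107), the kinetochore motor Cenpe 89.8-fold (95% interval 80.5 to 100.02) and the spindle assembly factor Tpx2 83.7-fold (95% interval 74.6 to 93.7). Without library 3, Nusap1 was 161-fold and Tpx2 138-fold. A pair of genes stood apart from this group. Kif23, the motor of the cleavage furrow, was at 158, 157 and 148 CPM in cycling cells and 22.8, 22.2 and 17.4 CPM in matched cells, a ratio of 7.41-fold (95% interval 6.73 to 8.14), and Cenpa, the histone of the centromere, at 166, 150.0 and 116 CPM in cycling cells and 55.1, 31.5 and 18.3 CPM in matched cells, a ratio of 3.95-fold (95% interval 3.58 to 4.35). The low ratios came with a high level in cells outside the cycling set, described below.

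The replication members had lower ratios than most G2/M members. Rrm2, the cell-cycle-regulated subunit of ribonucleotide reductase, was at 35.7, 94.9 and 117 CPM in cycling cells and 1.86, 1.84 and 6.33 CPM in matched cells, a ratio of 23.3-fold (95% interval 20.3 to 26.6), against that of its partner Rrm1 at 5.29-fold (95% interval 4.72 to 5.91). Library 1 was the lowest for Rrm2 in cycling cells. Of the MCM helicase, Mcm5 had the highest ratio, 10.4-fold (95% interval 8.95 to 12), then Mcm3 with 6.80-fold (95% interval 5.90 to 7.79) and Mcm7 with 6.11-fold (95% interval 5.27 to 7.04). Mcm6, Mcm4 and Mcm2 were 4.46-, 3.69- and 3.58-fold higher, and the intervals of the last pair overlap. Tyms, which makes thymidylate, was 7.78-fold (95% interval 6.73 to 8.95). Pcna, the replication clamp, was at 131, 161 and 164 CPM in cycling cells and 73.1, 48.0 and 68.6 CPM in matched cells, a ratio of 2.30-fold (95% interval 2.09 to 2.53) and the lowest of the 33; 33.6% of all other cells held it.

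The 3 broadly expressed members differed among themselves. Stmn1, which destabilises microtubules, was at 832, 1102 and 526 CPM in cycling cells and 34.6, 38.8 and 32.1 CPM in matched cells, a ratio of 22.9-fold (95% interval 22 to 23.9). Tubb5, a beta tubulin, was 6.25-fold (95% interval 6.01 to 6.50) higher and Hmgb2, a chromatin protein, 5.31-fold (95% interval 5.15 to 5.48). Hmgb2 was in 152 of 160 cycling cells and in 64.9% of the others.

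The difference was seen in each of the 4 classes with 10 or more cycling cells. In epithelial-like cells 33 of 33 members were at least 2-fold higher (background 5.05% of genes), and in dendritic cell-like cells 31 of 33 (background 11.3%), all but Cenpa and Pcna. T cell-like cells gave 30 of 33 (background 19.6%), all but Cenpa, Pcna and Rrm1, and macrophage-like cells 32 of the 32 tested (background 26.6%). Without the Xist-positive cluster macrophage-like cells gave 31 of 32 (background 26.3%), all but Pcna, from 7 cycling cells. From 20 to 23 members reached 10 CPM only in the cycling cells of these classes. The T cell-like and the full macrophage-like backgrounds rest on 17 and 16 cycling cells. Cenpa was at 113 CPM in cycling and 1.48 CPM in matched epithelial-like cells, a ratio of 76.9, but at 196 against 103 CPM in dendritic cell-like and 481 against 252 CPM in T cell-like cells.

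The members being higher together, their promoters were read for the elements known to time them. RefSeq promoters (GRCm38.p6, 250 bases before to 50 after each gene's start) were at hand for 30 of the 35 members and 32851 in all. The CHR letters, TTTGAA or TTCGAA on either strand, occurred in 15 of the 19 matched G2/M members, Mki67 and Top2a included (78.9%), in 2 of 9 replication members (22.2%) and in 19.2% of all promoters. E2F letters (TTTGGCGC, TTTCGCGC, TTTCCCGC or TTTGCCGC) occurred in 1 of 19 G2/M members and 4 of 9 replication members, against 2.26% of all. CCAAT letters occurred in 17 of 19 and 8 of 9, against 37.4%. Without the 50 bases after the start, CHR letters were left in 8 of 19 G2/M members (42.1%; all promoters 17.1%), so for 7 genes they lie only after the annotated start or across it. No member's CHR letters overlapped another motif. A match is a run of letters, not a measured binding site, and no binding was measured here.

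The promoters below, 250 bases up to the gene start, were chosen to show the contrast: the defining genes Top2a and Mki67, the spindle motor Kif11 and the cyclin Ccnb2 hold CHR letters, and the helicase subunits Mcm6 and Mcm5 hold E2F letters and no CHR letters. Capitals mark CHR, CCAAT and E2F letters on either strand. None of the 6 windows overlaps an exon of its own gene in GENCODE M21.
Top2a, chr11:99024190-99024439, minus strand: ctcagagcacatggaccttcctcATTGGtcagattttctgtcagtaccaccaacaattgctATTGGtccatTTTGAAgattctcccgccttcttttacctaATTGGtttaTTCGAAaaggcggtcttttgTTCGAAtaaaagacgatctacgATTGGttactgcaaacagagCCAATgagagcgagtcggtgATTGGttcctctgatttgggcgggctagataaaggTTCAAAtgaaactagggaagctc
Mki67, chr7:135716380-135716629, minus strand: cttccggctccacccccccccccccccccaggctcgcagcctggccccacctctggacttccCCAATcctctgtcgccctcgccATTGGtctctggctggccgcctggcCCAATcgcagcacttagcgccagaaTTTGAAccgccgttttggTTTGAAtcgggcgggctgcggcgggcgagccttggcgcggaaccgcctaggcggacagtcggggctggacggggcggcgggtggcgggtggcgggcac
Kif11, chr19:37376132-37376381, plus strand: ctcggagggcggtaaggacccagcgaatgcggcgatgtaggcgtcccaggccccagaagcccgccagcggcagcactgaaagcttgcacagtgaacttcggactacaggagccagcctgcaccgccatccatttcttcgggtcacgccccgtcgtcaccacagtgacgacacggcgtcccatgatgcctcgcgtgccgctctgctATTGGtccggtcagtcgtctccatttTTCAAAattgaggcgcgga
Ccnb2, chr9:70421555-70421804, minus strand: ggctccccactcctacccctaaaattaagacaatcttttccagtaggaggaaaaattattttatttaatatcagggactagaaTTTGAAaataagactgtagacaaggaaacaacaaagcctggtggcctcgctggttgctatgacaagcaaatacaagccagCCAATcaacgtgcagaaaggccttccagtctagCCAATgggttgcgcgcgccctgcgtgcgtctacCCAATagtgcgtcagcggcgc
Mcm6, chr1:128359706-128359955, minus strand: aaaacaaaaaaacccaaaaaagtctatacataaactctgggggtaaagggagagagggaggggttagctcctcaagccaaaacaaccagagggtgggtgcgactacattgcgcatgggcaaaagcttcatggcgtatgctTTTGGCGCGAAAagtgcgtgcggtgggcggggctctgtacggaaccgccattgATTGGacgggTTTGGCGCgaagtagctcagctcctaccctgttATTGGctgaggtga
Mcm5, chr8:75109259-75109508, plus strand: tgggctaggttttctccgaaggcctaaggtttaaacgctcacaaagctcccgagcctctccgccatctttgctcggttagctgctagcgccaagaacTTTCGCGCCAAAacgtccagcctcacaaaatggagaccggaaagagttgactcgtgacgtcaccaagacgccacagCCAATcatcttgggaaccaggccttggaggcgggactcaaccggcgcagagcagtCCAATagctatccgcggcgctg

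Counted from the start, the nearest CHR letters began at position -23 in Top2a, -19 in Kif11, -98 in Mki67 and -167 in Ccnb2. Cdk1, Cdc20 and Ube2c, not printed here, had theirs at -15, -18 and -29. Mcm6 held 3 E2F runs, overlapping ones counted separately, and Mcm5 held 2. Pcna, the member with the smallest ratio, held a CCAAT run at -87 and none of the other letters searched in its 250 bases.

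Some members were well expressed in cells outside the cycling set, each in its own class. Cenpa was at 289.8 CPM (95% interval 273 to 307) in T cell-like cells, with 278, 326 and 166 CPM in libraries 1, 2 and 3, and at 115 CPM (95% interval 106 to 125) in dendritic cell-like cells. In epithelial-like cells it was at 1.37 CPM (95% interval 1.2 to 1.56). Library 3 was the lowest for Cenpa in both immune classes. With the doublets kept, the T cell-like value was 192 CPM. 36.9% of T cell-like cells outside the cycling set held a Cenpa UMI, while 58.0% of those with neither defining gene held none of the 20 G2/M members, Cenpa included.

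Kif23 was highest in neutrophil-like cells, at 84.4 CPM (95% interval 72.8 to 97.3) and 76.4, 73.3 and 113 CPM by library, although none of these cells was cycling. In epithelial-like cells it was at 27.3 CPM (95% interval 26.5 to 28.1), and 32.3% of those cells held it. The epithelial values, 29.5, 27.1 and 24.1 CPM, lay close together across libraries.

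Rrm1 was highest in smooth muscle-like cells, at 127 CPM (95% interval 121 to 134) and 96.5, 84.9 and 159 CPM by library, a class with 1 cycling cell. In library 2 innate lymphoid-like cells were as high, at 85.5 CPM. Rrm2, the partner of Rrm1, was at 2.40 CPM (95% interval 1.55 to 3.54) in smooth muscle-like cells. Pcna was highest in endothelial-like cells, at 207 CPM (95% interval 192 to 224) and 241, 293 and 141 CPM by library, followed by pericyte-like cells at 174 CPM (95% interval 147 to 204). The libraries ordered differently for the pair: library 3 was the highest for Rrm1 in muscle and the lowest for Pcna in endothelium.

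Hmgb2 was at 915 CPM (95% interval 885 to 946) in T cell-like and 696 CPM (95% interval 662 to 732) in neutrophil-like cells outside the cycling set. Tubb5 was highest in lymphatic endothelial-like cells, at 481 CPM (95% interval 447 to 518), and Stmn1 in Schwann and glia-like cells, at 417 CPM (95% interval 324 to 528), a value from 68 UMIs that was 652 CPM with a minimum of 500 genes per cell. The rod photoreceptor class was left out of these statements, because 72 of its 77 Stmn1 UMIs and 87 of its 115 Tubb5 UMIs came from its 2 cells in libraries 2 and 3. Mcm4 and Mcm6 reached 45.2 and 32.7 CPM in T cell-like and Mcm3 35.1 CPM in endothelial-like cells. At the low end, Bub1, Plk1, Ccnb1 and Ttk did not exceed 1.32 CPM in any class outside the cycling set.

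**Figure D4:**
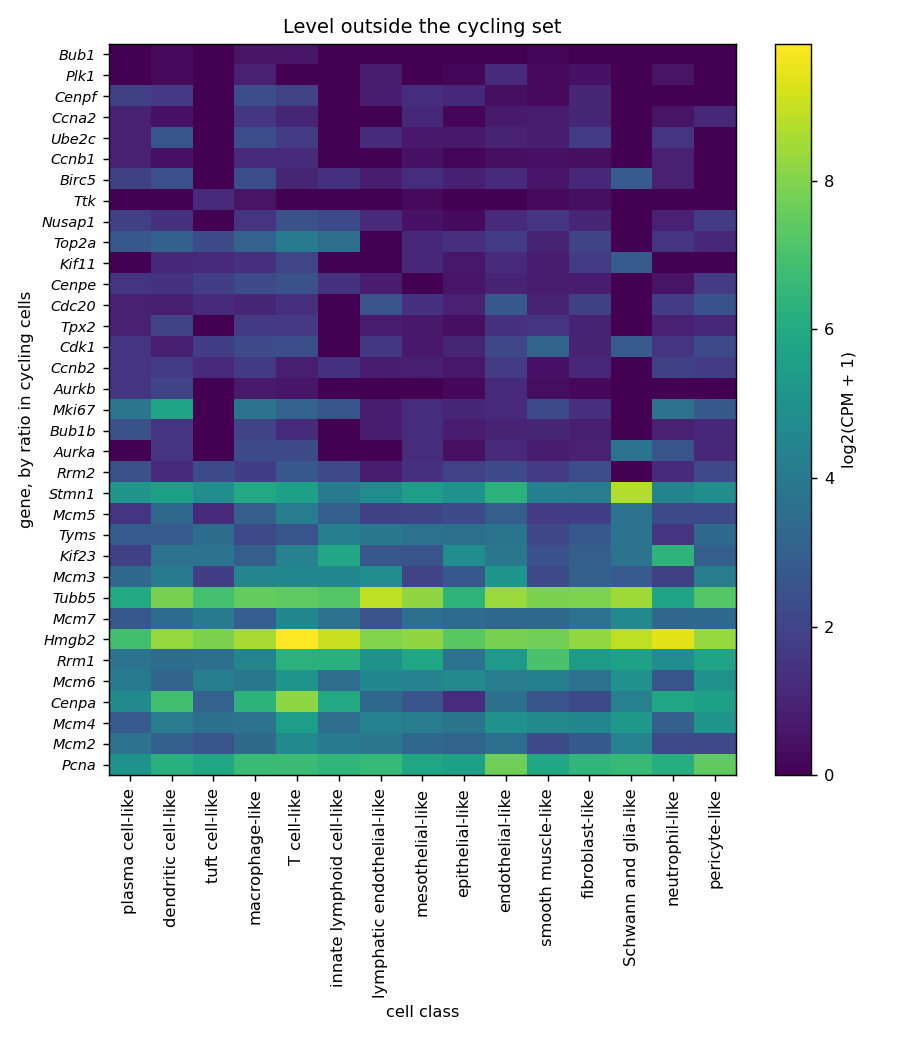
Level of the 35 genes (rows, ordered by their ratio in cycling cells) in cells outside the cycling set of 15 classes (columns), as log2(CPM + 1) by colour. The upper rows are dark in nearly all classes, apart from Mki67 in dendritic cell-like cells, and the bright cells of the lower rows include Cenpa in T cell-like, Kif23 in neutrophil-like and Pcna in endothelial-like cells.

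Counted over all cells and libraries, 20 of the 35 members had 10 CPM and 20 UMIs or more in their highest class. Dendritic cell-like cells were the highest class for 7 of them (Mki67, Top2a, Ube2c, Birc5, Cenpe, Nusap1 and Tpx2), a class that is highest for 4.02% of all genes so tested. T cell-like cells were highest for 5 (Cenpa, Mcm4, Mcm5, Mcm6 and Hmgb2, beside 8.01% of genes). Genes entered this count through their highest class, and Mki67 and Top2a define the cycling cells, so the counts are a description. Outside the cycling set, Top2a, Birc5, Cenpe and Nusap1 were highest in classes other than dendritic cell-like. The 5 genes of T cell-like cells kept their class there. By library the rank was less even. Dendritic cell-like cells were highest for Mki67, Top2a and Nusap1 in libraries 1 and 2, for Ube2c in libraries 2 and 3, for Cenpe and Tpx2 in 1 library each and for Birc5 in none. In library 3 plasma cell-like cells were highest for Mki67, Top2a, Birc5 and Tpx2, although 47.6% of the UMIs of this class were of immunoglobulin genes, which lowers its other CPM. T cell-like cells were highest in each library for Cenpa, Mcm4 and Hmgb2, and in library 2 alone for Mcm5 and Mcm6.

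Summed over the 32 members other than the broad ones, T cell-like cells had 933 CPM (1053, 741 and 1420 CPM in libraries 1, 2 and 3) and dendritic cell-like cells 775 CPM (750.3, 495 and 1346 CPM). In library 3 plasma cell-like cells were above both, at 2036 CPM. In the T cell-like sum 24.0% came from cycling cells and in the dendritic sum 56.0%. Over all 35 members the pooled sum was highest in the rod photoreceptor class, 2409 CPM, of which library 1, with 96 of its 98 cells, gave 1008 CPM; T cell-like cells were next with 2274 CPM.

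Cell by cell, the cycling cells held from 1 to 33 of the other 33 members, with a median of 19, against a median of 2 outside the set. 125 of 160 held 10 or more. 271 cells outside the set did too, 238 of them epithelial-like with a median of 36926 UMIs, against 13306 in their class. At the edge of the rule, 23 cycling cells had exactly 1 UMI of each marker, of which 7 held 3 or more of the 20 G2/M members; 439 cells had Mki67 alone and 432 Top2a alone. Over the whole set 130 of 160 held 3 or more, and 12 of the 30 that did not were dendritic cell-like.

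By the balance of their genes, 106 cycling cells had more UMIs of the 20 G2/M members, 48 more of the 10 replication members, and 6 the same number. Epithelial-like cells divided into 28 and 22, dendritic cell-like cells into 40 and 11, and T cell-like cells into 15 and 2. All 4 cycling plasma cell-like cells of library 3 leaned to replication and all 3 of library 2 to G2/M. This balance describes the genes and is not a phase call, and the choice of cells by Top2a, a G2/M gene, bears on it. It compares raw UMIs, and the level of each class outside the cycling set was not taken off. In matched T cell-like, dendritic cell-like and epithelial-like cells Cenpa, a G2/M member, was at 252, 103 and 1.48 CPM. Pcna, a replication member, was at 113, 81.9 and 49.4 CPM. The part of these levels in the split between classes was not tested.

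Ccnb1, Plk1 and Cdc20, which peak around mitosis, were unevenly spread over the libraries in dendritic cell-like cells. In libraries 1, 2 and 3, 4 of 15, 1 of 16 and 17 of 23 cycling dendritic cell-like cells held any of them, at median depths of 19253, 8318 and 7441 UMIs. Library 3 was the highest and the shallowest. In the epithelium the counts were 6 of 13, 16 of 23 and 6 of 14. The dendritic difference was noticed in the data and compares 3 libraries of unknown group.

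**Figure D5:**
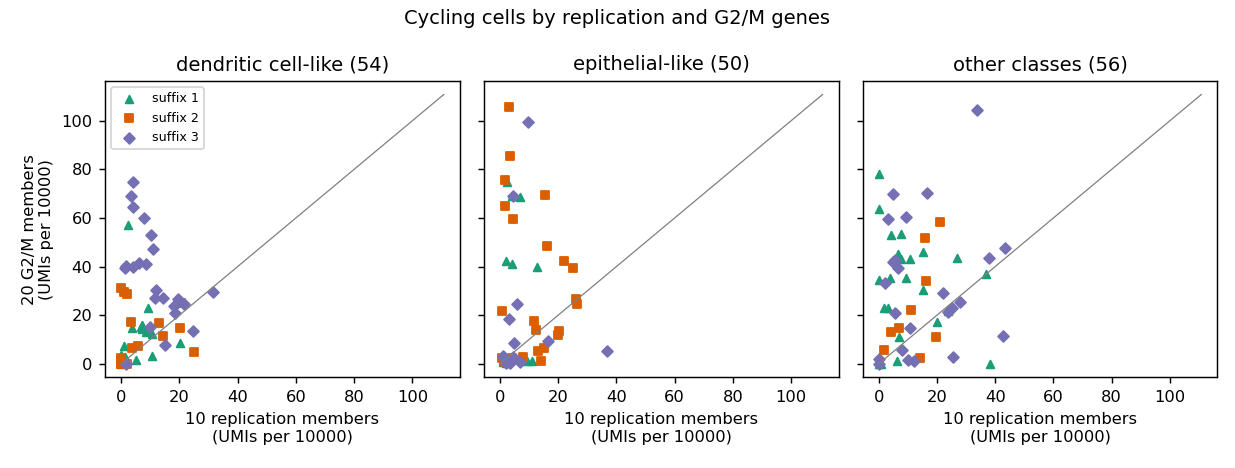
Each cycling cell by its UMIs per 10000 of the 10 replication members (x axis) and the 20 G2/M members (y axis), in dendritic cell-like, epithelial-like and other cells; colours and symbols give the library and the line marks equal values. In the dendritic panel most cells above 40 on the y axis are from library 3; epithelial-like cells of all 3 libraries reach above 60.

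Outside the 35 genes, 8 further lists of cell cycle genes were read by the same ratio. Of 118 tested genes, 87 were at least 2-fold higher beside the background of 4.98% given above, but 67 of the 118 reached 10 CPM only in the cycling cells, so the counts are a description. Kinetochore and spindle genes gave 26 of 26, all of which reached 10 CPM only in the cycling cells, with Hmmr, a spindle-associated protein, at 109 against 0.492 CPM (222-fold, 95% interval 198 to 248), Prc1, a midzone bundler, at 194 against 3.22 CPM and the kinetochore protein Spc24 at 121 against 1.90 CPM. Replication genes gave 25 of 27: Dut, which clears dUTP, was at 123 against 20.1 CPM and Atad2 at 115 against 17.6 CPM, while Slbp, which binds histone mRNA, was at 115 against 66.3 CPM (1.73-fold, 95% interval 1.55 to 1.93) and did not reach the limit. Condensin, cohesin and chromatin genes gave 14 of 16, among them Smc4, a condensin subunit, at 271 against 35.5 CPM, H2afz at 2157 against 804 CPM and Hmgb1 at 789.6 against 328 CPM. Checkpoint and mitotic entry genes gave 9 of 12, with Cks2 at 224 against 34.2 CPM, Cks1b at 137 against 16.9 CPM and the checkpoint protein Mad2l1 at 57.8 against 2.84 CPM.

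The regulators upstream of division moved less evenly. RB, E2F and DREAM genes gave 10 of 16, with Foxm1, a driver of G2/M genes, at 39.7 against 0.758 CPM (52.4-fold, 95% interval 43.2 to 63.1), the E2F partner Tfdp1 at 52.1 against 19.0 CPM and the MuvB subunit Lin54 at 49.0 against 33.5 CPM. Of the G1 cyclins and kinases, 1 of 7 was higher and 1 lower; Ccnd1, cyclin D1, was at 292 against 309 CPM, Cdk4 at 86.2 against 47.2 CPM and Ccnd3 at 47.9 against 42.9 CPM. Among CDK inhibitors 2 of 4 were higher: Cdkn2d was at 49.3 against 11.5 CPM, whereas Cdkn1a, the p53-induced inhibitor, was at 446 against 416 CPM and Cdkn1b at 68.8 against 67.6 CPM. None of 10 quiescence genes passed in either direction. Btg1 and Btg2, antiproliferative genes, were at 758 against 941 CPM and 900.3 against 1058 CPM, and Gas6 at 653 against 971 CPM.

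The 20 genes in no list with the highest ratios include several known from division. Pbk, a mitotic kinase, was at 59.2 against 0.273 CPM (217-fold, 95% interval 186 to 253), and Cdkn3, a phosphatase acting on CDKs, at 53.2 against 0.362 CPM (147-fold, 95% interval 124 to 172). Replication-linked histone genes followed, with Hist1h2ap at 69.2 against 0.621 CPM and Hist1h1b at 154 against 1.87 CPM. Pclaf, a partner of PCNA, was at 163 against 2.14 CPM, Cdca3 at 146 against 2.01 CPM, Tacc3, a spindle protein, at 78.8 against 2.51 CPM and the helicase Hells at 79.1 against 4.93 CPM. The other genes of the 20 were Hist1h2ae, Lockd, Arhgap11a, Hist1h4d, Hist1h1e, Ezh2, Ccdc34, Tipin, Dbf4, Fam111a, Topbp1 and Pmf1, with ratios from 4.32 to 55.8. Without library 3, Pbk was 516-, Cdca3 145-, Hist1h2ae 84.3- and Lockd 40.4-fold. Arhgap11a, 9.42-fold, was at 0.995-fold with cell cycle genes among the clustering genes. These genes were picked for their ratio, so the values are a description.

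The count of a gene can include reads of another gene where both overlap. Exons of Ccna2, Cdc20, Plk1, Nusap1, Ube2c and Mcm7 overlap a gene on the opposite strand (GENCODE M21), and the use of strand in the counting is not given in the sources used here. Histone genes are near-identical copies of one another, so their separate values are uncertain.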

How the data were processed

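The deposited matrix holds UMI counts per gene and barcode, and the file headers name Cell Ranger 6.1.1 as the authors' counting program. The genome was GRCm38 (mm10) per the submitters' processing notes. The annotation, the handling of reads shared by genes and any equalising of depth between libraries are not given in the sources used here. The 3 libraries held 5643, 11827 and 10230 barcodes.

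Barcodes with under 300 genes (1015) or over 20% mitochondrial UMIs (668) and doublets called by Scrublet per library at a score of 0.25 (1024) were left out, which kept 24993 of 27700. The rest were clustered with scanpy 1.11.5 (2000 variable genes without 241 cell cycle genes, 30 components, 15 neighbours, Leiden resolution 1) into 30 clusters. A class was named from at least 3 detected markers of a fixed list and is called by that name with "-like"; the names are rebuilt and may differ from the authors' own.

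CPM, each gene's counts scaled by the counts of the same cells, were computed from summed counts. The cycling to matched ratio was read for genes with 10 CPM or more on either side, and 2-fold was the limit. Thinned shares are exact expectations at 1000 UMIs per cell. Intervals are exact Poisson or Clopper-Pearson at 95%, for counting error only; ratio intervals carry the error of the cycling count alone. The ratio step was tested on simulated Poisson counts, in which only genes with 10 CPM or more in matched cells were changed. That test covers neither the spread between cells nor genes that reach 10 CPM only in cycling cells. With 1 library per group and no tie of library to group, no statistical test was made.

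The members, lists, markers and rules were chosen with earlier results of these data known. Named were all 35 members, the 3 genes of each other list with the highest CPM in cycling cells, and the 20 genes in no list with the highest ratio among those with 50 CPM or more in cycling cells and at least 2-fold higher in each library. The genes used to describe the cycling cells of each class, the epithelial cluster led by Gabrp, the dendritic gates, and the trio of Ccnb1, Plk1 and Cdc20 were chosen after their values were seen. Alternatives changed the cell filters, the clustering, the cycling rule, the libraries used, the ratio limits and the promoter window. Removal of the Xist-positive clusters and a rule with 3 or more G2/M members were added after seeing the data.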

Additional observations from a re-analysis of the deposited data

Results flagged for a closer look

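The doublets removed before clustering entered no comparison, and some of them met the cycling rule. Of the 1024 barcodes removed as doublets, 12 held both Mki67 and Top2a (1.17%), against 0.640% of the cells kept. With the doublets kept, all 33 other members were still at least 2-fold higher in cycling cells.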

How the results depend on the processing

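No paired analysis was possible because the labels give no shared replicate numbers and no group holds more than 1 library. The count of members at least 2-fold higher, 33 of 33, was within 1.5 times of itself under every alternative run, and the lowest ratio of any member was 2.06 (Pcna). Of 860 alternative values, 580 stayed inside the counting interval of the main value or, for counts of genes, within 1.5 times of it. A highest class also had to stay the same class. Of the rest, 279 moved further and 1 reversed. Arhgap11a was at 0.995-fold with cell cycle genes among the variable genes, against 9.42-fold.

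The share of cycling cells, 0.640%, was 0.408% with 2 UMIs of each marker, 0.148% at 1000 UMIs, 0.753% with libraries weighted equally, 0.520% with 3 or more G2/M members too, 18.4% under the rule of 5 of the 33 other members, and 0.526 to 0.797% with 1 library left out. The class with the highest share was plasma cell-like at 6.78%. It became dendritic cell-like with 20 components (6.16%) and 2 UMIs (4.30%), and epithelial-like under the rule of 5 members (35.3%). With cell cycle genes among the variable genes it was the enlarged class named tuft cell-like (33.6%), whose identity was not tested. At 1000 UMIs it was plasma cell-like at 1.32%. With 1 library left out the highest share ran from 5% (dendritic cell-like, without library 3) to 10% (plasma cell-like).

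The highest summed level of the 35 members was 2409 CPM in the rod photoreceptor class. It passed to T cell-like cells with a minimum of 500 genes (2281), a mitochondrial limit of 10% (2267), resolution 0.5 (2191) and 20 components (2181). It did so too with equal weights (2646), 32 members (933), single-cell means (2071) and without the Xist-positive clusters (2274). With cell cycle genes among the variable genes it passed to the enlarged class named tuft cell-like, at 4583 CPM. With 1 library left out it ran from 2145 CPM without library 1 to 2863 CPM without library 2, both in T cell-like cells. Cycling cells leaning to G2/M genes were 78.4% with 2 UMIs, against 66.2%. G2/M promoters with CHR letters were 42.1% without the 50 bases after the start. The cause of these moves was not tested. Depth limits the shares, and classes with few cycling cells are known only within wide intervals.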
